A study of Mus musculus with 48 samples.

Results

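Hepatic stellate cells are the vitamin A-storing pericytes of the liver sinusoid. When they are activated they lose their retinyl ester stores, take on a contractile, myofibroblast-like state and become the main source of fibrillar collagen in the injured liver. TGF-β1 and PDGF-B are the ligands best known for driving this change, lysyl oxidases cross-link the collagen that is laid down, and collagenases together with their inhibitors set how fast it is removed.

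The genes described here are Tgfb1 and Pdgfrb (signalling), Acta2, Tagln and Des (contractile and cytoskeletal proteins), Lrat (vitamin A storage), Lox and Loxl1 (collagen cross-linking), and Timp1 and Mmp13 (matrix turnover). They are 10 of the 37074 gene names on the array and were chosen by name, through every probe that carries one of these names. They have 16 of the 56605 probes, of which 12 were bright enough to be tested, covering 9 of the 10 genes. Lox was not tested.

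RNA was measured in the liver of male C57Bl6J mice on 48 single-colour Agilent arrays, 1 mouse per array and 8 mice per group. Wild-type (WT) mice, mice lacking Pparα in hepatocytes (Pparα hep-/-) and mice lacking it in the whole body (Pparα-/-) each received a control diet (CTRL) or a high fat diet (HFD) with 60% fat. The labels give 20 weeks as the age and 12 weeks as the time on the diet. The study's methods state a shorter time, so the time on the diet is in doubt. All groups were kept at thermoneutrality. PPARα is the fatty acid-sensing nuclear receptor of hepatocytes. In Pparα hep-/- mice the floxed gene is removed by Cre under the albumin promoter, so stellate cells, macrophages and endothelial cells keep their own copy, whereas in Pparα-/- mice every cell lacks it. The question put to these genes was whether HFD changes them, and whether that response or the level itself differs between the 3 genotypes.

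Values are log2 median spot signals after quantile normalisation. A level is comparable between mice for 1 probe but not between probes. Differences are log2 fold changes ± SE from limma, and a gene was called when its Benjamini-Hochberg adjusted p over the 33323 tested probes was at most 0.05. The liver was measured as a whole, so a larger number of cells of a type and more RNA per cell cannot be told apart.

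Several facts of the series bear on these genes. The brighter Ppara probe had medians of 14.54 and 15.07 in WT mice (CTRL and HFD), 14.11 and 14.24 in Pparα hep-/- mice and 13.92 and 14.03 in Pparα-/- mice. The dimmer one had medians of 12.86 and 13.36, 12.80 and 12.69, and 11.81 and 12.08 in the same order. On CTRL the brighter probe was lower in Pparα hep-/- than in WT mice (-0.42, adjusted p = 0.000887), whereas the dimmer one gave -0.10 (adjusted p = 0.454). Whether either Ppara probe lies in the deleted part of the gene was not analysed here, so this is only a partial check of the labels. Between 28234 and 38217 probes were well above background on an array. The arrays were washed in 2 batches, with 3 to 5 mice of every group in each. Array weights, by which limma counts noisier arrays less, ran from 0.189 to 2.53. The lowest weights, 0.189 and 0.208, belonged to replicate 1 of the Pparα hep-/- CTRL group and replicate 6 of the WT CTRL group, and both of these mice were among the highest for the genes below.

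In WT mice, none of the 9 genes passed the test for a change on HFD. In Pparα hep-/- mice 5 of 9 rose on HFD (Acta2, Tagln, Pdgfrb, Timp1 and Loxl1), by 1.37- to 2.00-fold. In Pparα-/- mice Des, Lrat, Pdgfrb and Tgfb1 rose, by 1.27- to 1.64-fold. Mmp13 also passed the test there, but it was well above background on only 2 of 8 CTRL and 7 of 8 HFD arrays, so the count is 5 of 9 with it and 4 without it. Each gene is counted by its brightest tested probe, and none of these 9 probes was called lower on HFD in any genotype. A dimmer Des probe with a negative value is given with that gene. Pdgfrb was the gene called in both Pparα-deficient genotypes. Of all tested probes, 18.7%, 20.2% and 24.8% were called in the WT, Pparα hep-/- and Pparα-/- genotypes, and 8.6%, 9.46% and 12.2% were called higher on HFD. The count of 0 in WT mice is by limma, with 0 genes at an unadjusted p under 0.05 and 0 under each of the 10 other settings fitted over all probes. The counts in the Pparα-deficient genotypes depend on the array weights: with all arrays weighted equally, limma called 1 gene in Pparα hep-/- mice (Acta2) and 1 in Pparα-/- mice (Tgfb1), while the values kept their direction for all 10 called responses. The share of all tested probes called with equal weights was 3.81% in the Pparα hep-/- and 12.1% in the Pparα-/- genotype. With the 2 arrays of lowest weight left out, the counts were 6, with Mmp13 added, and 5 (against 22.8% and 25.1% of all probes). They were 3 and 2 of 10 genes, Lox included, without the filter on dim probes (against 6.32% and 10.6% of all probes under that setting), and with slides as blocks in place of wash batches the Pparα-/- count was 3 (against 23.9%). Without replicate 2 of the Pparα-/- CTRL group, a mouse picked for its high values of these genes, the Pparα-/- count was 8 (against 27.6%), with Tagln (0.65, adjusted p = 0.0231), Timp1 (0.73, adjusted p = 0.0107) and Loxl1 (0.73, adjusted p = 0.0485) added. Since the mouse was picked in this way, that count and its p-values support nothing.

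**Figure D1:**
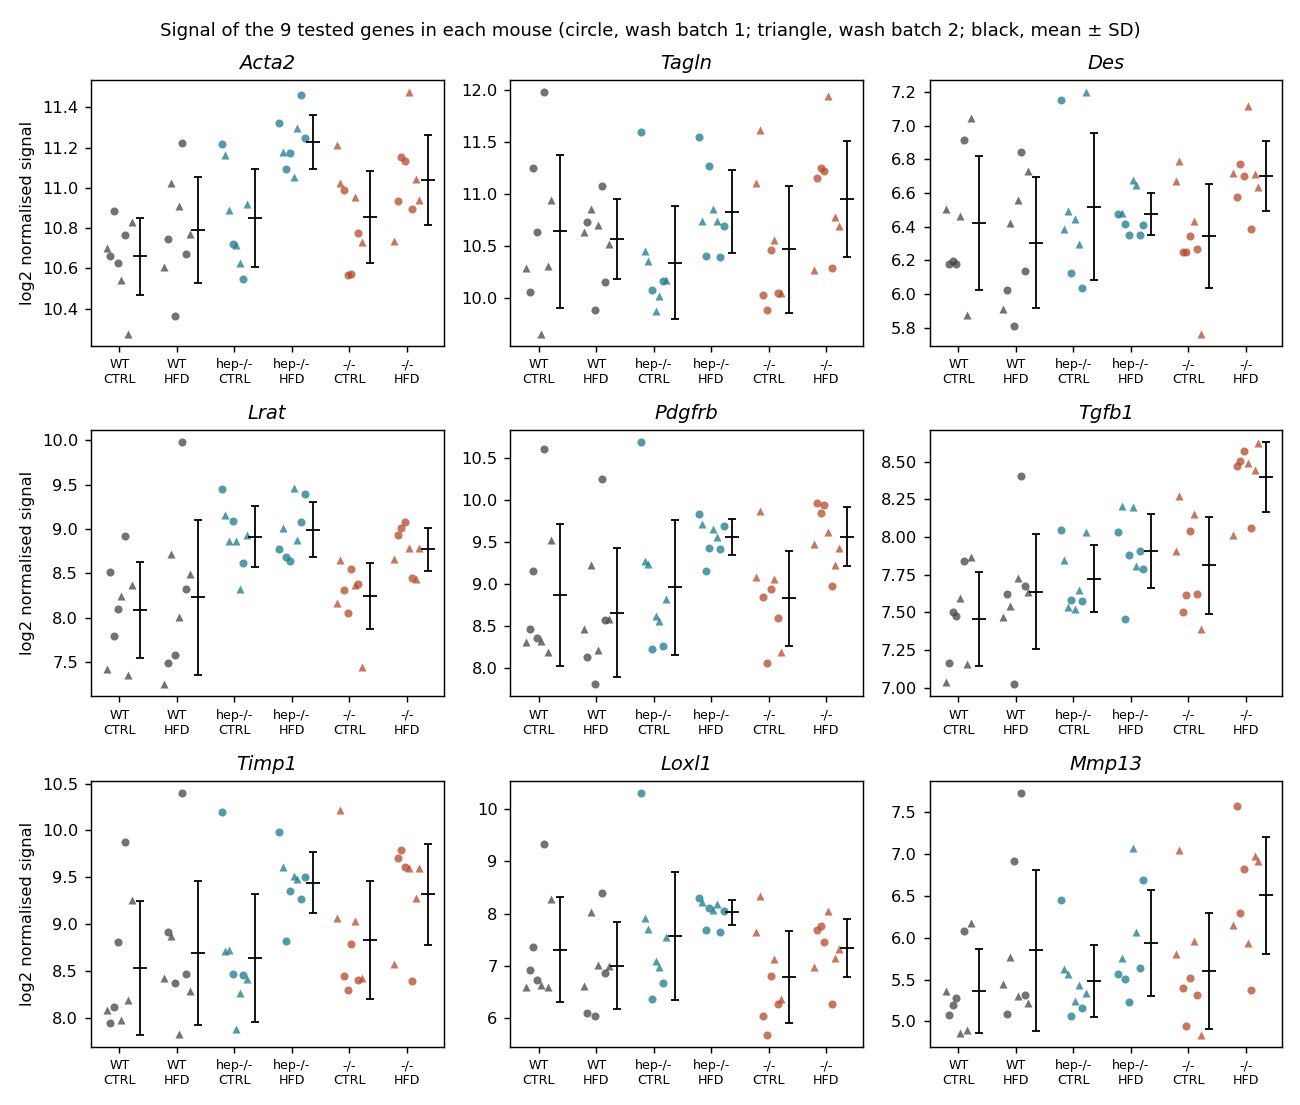
Log2 normalised signal of the 9 tested genes in every mouse (vertical axis) by genotype and diet (horizontal axis); circles and triangles are wash batches 1 and 2, and black bars are the mean ± SD of 8 mice. Single CTRL and WT mice reach the level of the HFD-fed Pparα-deficient mice in most panels, for example the Pparα hep-/- CTRL mouse at 10.31 for Loxl1.

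**Figure D2:**
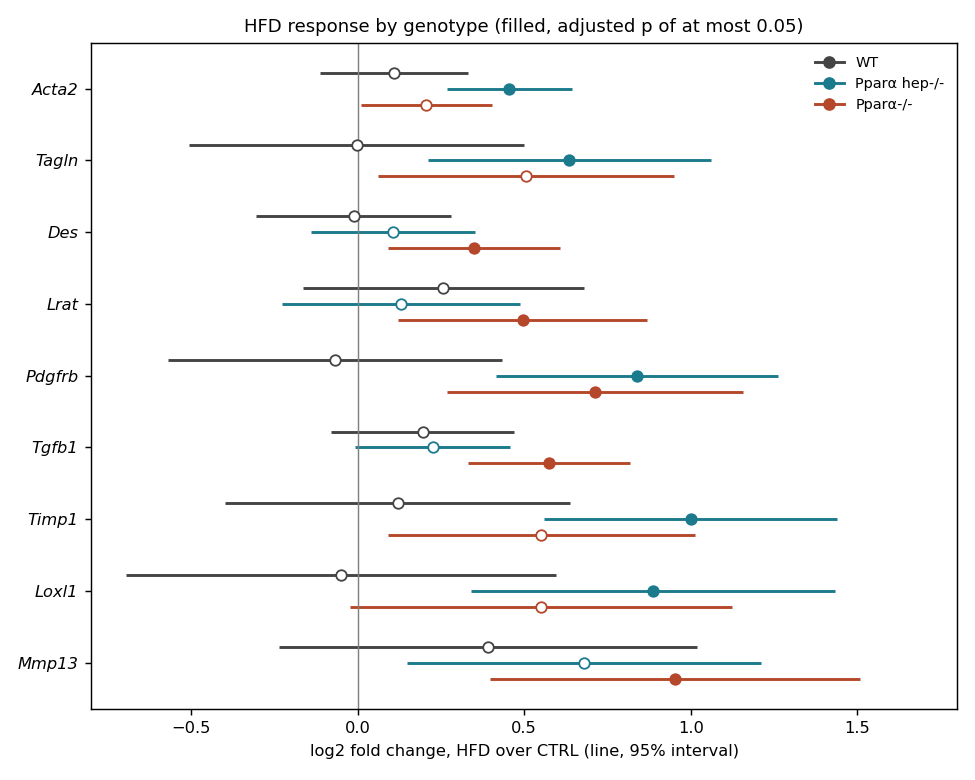
Log2 fold change of HFD over CTRL (horizontal axis) for each gene (vertical axis) in the 3 genotypes, with 95% intervals as lines; filled points had an adjusted p of at most 0.05. All 9 WT points are open, 5 Pparα hep-/- points and 5 Pparα-/- points are filled, and these 10 filled points lie to the right of 0.

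Among the signalling genes, Tgfb1 encodes the ligand TGF-β1, which macrophages, endothelial cells and stellate cells can all release. Its signal ran from 7.04 to 7.87 in WT CTRL mice (median 7.49) and from 7.02 to 8.40 in WT HFD mice (median 7.63). It ran from 7.52 to 8.05 in Pparα hep-/- CTRL mice (median 7.62) and from 7.45 to 8.21 on HFD (median 7.89). It ran from 7.39 to 8.27 in Pparα-/- CTRL mice (median 7.76) and from 8.01 to 8.62 on HFD (median 8.48). The HFD-fed Pparα-/- mice were the highest group, and all 8 lay above the mean of their CTRL group. Their range overlapped that of every other group except WT CTRL.

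The HFD response of Tgfb1 was 0.58 ± 0.12 in Pparα-/- mice (adjusted p = 0.000527), 0.23 ± 0.12 in Pparα hep-/- mice (adjusted p = 0.164) and 0.20 ± 0.14 in WT mice (adjusted p = 0.357). On HFD, Pparα-/- mice exceeded both WT mice, by 0.83 ± 0.12 (adjusted p = 1.61e-07), and Pparα hep-/- mice, by 0.51 ± 0.11 (adjusted p = 0.000334). Pparα hep-/- mice exceeded WT mice on HFD by 0.32 ± 0.12 (adjusted p = 0.0422). This last call was lost under 5 of the 10 other settings. Tgfb1 was also the only gene of the 9 called between Pparα-/- and WT mice on CTRL, at 0.45 ± 0.14 (adjusted p = 0.00885). This became 0.36 when all arrays were weighted equally (adjusted p = 0.0530). A dimmer Tgfb1 probe was well above background on 13 of 48 arrays, and on 4 of 8 only in the HFD-fed groups of the Pparα-deficient genotypes, through which it passed the brightness filter. Its values are given as a description and support nothing. It gave 0.32 ± 0.12 for the Pparα-/- HFD response (adjusted p = 0.0408) and 0.30 ± 0.11 for that of Pparα hep-/- mice (adjusted p = 0.0484), but 0.14 ± 0.11 between Pparα-/- and Pparα hep-/- mice on HFD (adjusted p = 0.368) and 0.03 ± 0.13 between Pparα-/- and WT mice on CTRL (adjusted p = 0.890).

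Pdgfrb encodes the receptor for PDGF-B, the main mitogen of activated stellate cells. Its signal ran from 8.19 to 10.61 in WT CTRL mice (median 8.42) and from 7.81 to 10.25 in WT HFD mice (median 8.52). Pparα hep-/- mice ranged from 8.22 to 10.69 on CTRL (median 8.72) and from 9.16 to 9.83 on HFD (median 9.61). Pparα-/- mice ranged from 8.06 to 9.87 on CTRL (median 8.89) and from 8.98 to 9.97 on HFD (median 9.55). The HFD-fed mice of both Pparα-deficient genotypes formed narrow, high groups, with SDs of 0.22 and 0.35 against 0.57 to 0.85 in the other groups. The highest mouse of each of the WT groups and of the Pparα hep-/- CTRL group nevertheless lay above all of them.

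On HFD Pdgfrb rose in both Pparα-deficient genotypes: the difference was 0.84 ± 0.21 without hepatocyte Pparα (adjusted p = 0.00386) and 0.71 ± 0.22 in Pparα-/- mice (adjusted p = 0.0146), while the WT value was -0.07 ± 0.25 (adjusted p = 0.899). These calls held under 9 and 8 of the 10 other settings: both were lost with equal array weights, and the second also without the filter on dim probes. Against WT mice on HFD it was 2.01-fold higher in Pparα hep-/- mice (1.01 ± 0.22, adjusted p = 0.000553) and 1.96-fold higher in Pparα-/- mice (0.97 ± 0.22, adjusted p = 0.000278). The first of these was 0.89 when all arrays were weighted equally (adjusted p = 0.0613). No gene was closer to its profile than Efemp2 (r = 0.973 over 48 arrays) and Serpinh1 (r = 0.963), the collagen chaperone, out of 15583 genes compared.

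Acta2 encodes α-smooth muscle actin, the contractile actin by which activated stellate cells are usually recognised. The probe that stands for it is shown because its files' coordinates (mm9, chr19:34322995-34326249, minus strand) span 3255 bases for a 60-base probe, so it crosses a splice junction, and because actin genes are near-identical in their coding parts:
Acta2 probe: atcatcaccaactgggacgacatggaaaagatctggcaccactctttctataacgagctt
The signal of this probe ran from 10.28 to 10.88 in WT CTRL mice (median 10.68) and from 10.36 to 11.22 in WT HFD mice (median 10.76). The Pparα hep-/- range was from 10.55 to 11.22 on CTRL (median 10.81) and from 11.05 to 11.46 on HFD (median 11.21). The Pparα-/- range was from 10.57 to 11.21 on CTRL (median 10.87) and from 10.74 to 11.48 on HFD (median 10.99). The HFD-fed Pparα hep-/- mice were the highest group by median and all 8 lay above their CTRL mean. Their range overlapped that of every other group except WT CTRL.

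Acta2 rose on HFD in Pparα hep-/- mice by 0.46 ± 0.09 (1.37-fold, adjusted p = 0.000516), and this was called under all 10 other settings. It did not pass the test in Pparα-/- mice (0.21 ± 0.10, adjusted p = 0.118) or WT mice (0.11 ± 0.11, adjusted p = 0.558). On HFD it was higher than in WT in both Pparα hep-/- mice (0.49 ± 0.10, adjusted p = 0.000166) and Pparα-/- mice (0.29 ± 0.10, adjusted p = 0.0115), and the latter was not called when all arrays were weighted equally (0.25, adjusted p = 0.0752).

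These Acta2 values are uncertain as a measure of α-smooth muscle actin alone. The gene whose profile was closest to this probe was Actg1, the cytoplasmic γ-actin of most cells, at r = 0.947 over 48 arrays. Actg1 itself rose on HFD by 0.55 ± 0.09 in Pparα hep-/- mice (adjusted p = 2.55e-05). A second Acta2 probe (mm9, chr19:34316060-34316119) was well above background on all 48 arrays and correlated with the first at r = 0.488, as a description. It gave 0.48 ± 0.37 for the Pparα hep-/- HFD response (adjusted p = 0.379) and was called in none of the 12 contrasts. Whether the first probe also binds other actins was not tested.

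Tagln encodes transgelin, an actin-binding protein of smooth muscle and myofibroblasts. Its signal ran from 9.66 to 11.98 in WT CTRL mice (median 10.47) and from 9.88 to 11.08 on HFD (median 10.67). Values in Pparα hep-/- mice ran from 9.88 to 11.59 on CTRL (median 10.17) and from 10.39 to 11.55 on HFD (median 10.74). Values in Pparα-/- mice ran from 9.89 to 11.61 on CTRL (median 10.26) and from 10.27 to 11.94 on HFD (median 10.96). All groups overlapped, and the highest Pparα hep-/- CTRL mouse, at 11.59, stood apart from the next at 10.45.

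Tagln rose on HFD in Pparα hep-/- mice, by 0.64 ± 0.21 (adjusted p = 0.0273), a call that held under 8 of the 10 other settings. The value in Pparα-/- mice was 0.51 ± 0.22 (adjusted p = 0.0874) and in WT mice it was 0.00 ± 0.25 (adjusted p = 0.997). With all mice it was called in no contrast between genotypes. The genes most like it were Myl9 (r = 0.865), the regulatory light chain of smooth muscle myosin, and S100a6 (r = 0.860).

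Des encodes desmin, the intermediate filament by which rodent stellate cells are often identified. The signal of its brighter probe ran from 5.88 to 7.05 in WT CTRL mice (median 6.33) and from 5.81 to 6.84 on HFD (median 6.28). Pparα hep-/- mice ranged from 6.03 to 7.20 on CTRL (median 6.42) and from 6.35 to 6.68 on HFD (median 6.44). Pparα-/- mice ranged from 5.77 to 6.79 on CTRL (median 6.30) and from 6.38 to 7.11 on HFD (median 6.71). The highest median was that of the HFD-fed Pparα-/- mice, and all groups overlapped.

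By this probe Des rose on HFD in Pparα-/- mice by 0.35 ± 0.13 (adjusted p = 0.0410), and was higher in them than in WT mice on HFD by 0.37 ± 0.13 (adjusted p = 0.0140). The values in Pparα hep-/- mice (0.11 ± 0.12, adjusted p = 0.582) and WT mice (-0.01 ± 0.14, adjusted p = 0.971) did not pass the test. The HFD call in Pparα-/- mice held under 6 of the 10 other settings and was lost with equal array weights (adjusted p = 0.130), with slides as blocks (0.0639), without the filter on dim probes (0.0842) and with the replicate block (0.0545). The second Des probe gave -0.57 ± 0.14 (adjusted p = 0.00216) for the same response. It was well above background on 14 of 48 arrays, against 45 for the brighter one, and passed the brightness filter only through the Pparα-/- CTRL group (4 of 8 arrays, against 1 of 8 on HFD), so its value is a description and supports nothing. The probes correlated at r = -0.359 over 48 arrays, also as a description.

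Lrat encodes the enzyme that esterifies retinol for storage, and is a marker of quiescent stellate cells. Its signal ran from 7.35 to 8.92 in WT CTRL mice (median 8.17) and from 7.25 to 9.98 on HFD (median 8.17). The Pparα hep-/- range was from 8.33 to 9.46 on CTRL (median 8.90) and from 8.64 to 9.46 on HFD (median 8.94). The Pparα-/- range was from 7.45 to 8.65 on CTRL (median 8.34) and from 8.44 to 9.08 on HFD (median 8.79). Pparα hep-/- mice were high on both diets, and all 8 on CTRL exceeded the WT CTRL mean, although single WT mice reached their range.

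Lrat was the only gene of the 9 called between Pparα hep-/- and WT mice on CTRL, at 0.87 ± 0.20 (1.83-fold, adjusted p = 0.00124). On the same diet it was lower in Pparα-/- than in Pparα hep-/- mice (-0.61 ± 0.19, adjusted p = 0.0149), and none of the 8 Pparα-/- mice reached the Pparα hep-/- mean. Both of these differences were called under all 10 other settings. Against WT mice on HFD, Lrat was higher by 0.74 ± 0.18 without hepatocyte Pparα (adjusted p = 0.00225) and by 0.50 ± 0.18 in Pparα-/- mice (adjusted p = 0.0223). The last of these was not called when all arrays were weighted equally (adjusted p = 0.0785) or without the filter on dim probes (adjusted p = 0.0519). HFD raised it in Pparα-/- mice by 0.50 ± 0.19 (adjusted p = 0.0447), a call that held under 5 of the 10 other settings.

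Loxl1 and Lox encode lysyl oxidases, which oxidise lysines of elastin and collagen so that the fibres cross-link. Loxl1 is shown with the probe that measured it, together with those of Timp1 and Tgfb1, because each of the 3 was called for HFD in 1 Pparα-deficient genotype. The probes lie in mm9 at chr9:58138570-58138629 (minus strand), chrX:20451675-20451733 (plus strand) and chr7:26489877-26489936 (plus strand):
Loxl1 probe: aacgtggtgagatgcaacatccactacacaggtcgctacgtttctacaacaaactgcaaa
Timp1 probe: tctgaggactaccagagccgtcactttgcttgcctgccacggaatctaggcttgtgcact
Tgfb1 probe: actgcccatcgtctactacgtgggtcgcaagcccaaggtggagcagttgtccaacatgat
The Loxl1 signal ran from 6.59 to 9.34 in WT CTRL mice (median 6.82) and from 6.04 to 8.39 on HFD (median 6.93). Values in Pparα hep-/- mice ran from 6.36 to 10.31 on CTRL (median 7.32) and from 7.65 to 8.30 on HFD (median 8.08). Values in Pparα-/- mice ran from 5.68 to 8.34 on CTRL (median 6.59) and from 6.27 to 8.04 on HFD (median 7.39). The SD was 0.24 in the HFD-fed Pparα hep-/- mice and 1.22 in their CTRL group, where the highest mouse was at 10.31 and the next at 7.92.

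Loxl1 rose on HFD in Pparα hep-/- mice by 0.89 ± 0.27 (1.85-fold, adjusted p = 0.0170), which became 0.49 with equal array weights (adjusted p = 0.634). The WT value was -0.05 ± 0.32 (adjusted p = 0.944) and the Pparα-/- value 0.55 ± 0.28 (adjusted p = 0.155). Against WT mice on HFD, Pparα hep-/- mice were higher by 1.09 ± 0.28 (adjusted p = 0.00333), which became 1.04 when all arrays were weighted equally (adjusted p = 0.104). It was lower in Pparα-/- than in Pparα hep-/- mice on HFD (-0.71 ± 0.26, adjusted p = 0.0344), a call that held under 6 of the 10 other settings. Loxl1 followed Islr (r = 0.970) and the collagen VI chain Col6a3 (r = 0.968) most closely.

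Lox could not be tested. Its 2 probes were well above background on 11 and on 1 of 48 arrays. The brighter one, before normalisation, had group medians between 5.16 and 5.71 and single values up to 7.48 in the WT CTRL group and 7.39 in the Pparα hep-/- CTRL group. When all probes were fitted without the filter, its values were -0.47, 0.28 and 0.31 for the HFD response in WT, Pparα hep-/- and Pparα-/- mice (adjusted p = 0.333, 0.539 and 0.473). A change in Lox was not detectable at this signal.

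Timp1 encodes a secreted inhibitor of matrix metalloproteinases, which slows the removal of matrix. Its signal ran from 7.95 to 9.88 in WT CTRL mice (median 8.15) and from 7.83 to 10.40 on HFD (median 8.45). Pparα hep-/- mice ranged from 7.88 to 10.19 on CTRL (median 8.46) and from 8.82 to 9.99 on HFD (median 9.49). Pparα-/- mice ranged from 8.29 to 10.22 on CTRL (median 8.62) and from 8.39 to 9.79 on HFD (median 9.60). A single high mouse stood apart in the WT HFD group, the Pparα hep-/- CTRL group and the Pparα-/- CTRL group, and the groups overlapped.

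Timp1 rose on HFD in Pparα hep-/- mice by 1.00 ± 0.22 (2.00-fold, adjusted p = 0.00103), with all 8 HFD mice above the CTRL mean. With equal array weights this became 0.77 (adjusted p = 0.176). In Pparα-/- mice the value was 0.55 ± 0.23 (adjusted p = 0.0702) and in WT mice 0.12 ± 0.26 (adjusted p = 0.813). Compared with WT on HFD it was higher, by 0.98 ± 0.23 without hepatocyte Pparα (adjusted p = 0.00111) and by 0.89 ± 0.22 in Pparα-/- mice (adjusted p = 0.00103), and with equal weights these were 0.73 (adjusted p = 0.126) and 0.62 (adjusted p = 0.116). The genes most like Timp1 were Rab7b (r = 0.936) and Adam8 (r = 0.929).

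Mmp13 encodes the collagenase that takes the role of interstitial collagenase in mice. It was well above background on 21 of 48 arrays, the fewest of the 9 tested genes. Of 8 arrays per group it was well above background on 2 in each of the WT groups and the CTRL groups, on 6 of the HFD-fed Pparα hep-/- mice and on 7 of the HFD-fed Pparα-/- mice. Its signal ran from 4.86 to 6.18 in WT CTRL mice (median 5.24) and from 5.09 to 7.73 on HFD (median 5.38). The Pparα hep-/- range was from 5.06 to 6.45 on CTRL (median 5.39) and from 5.23 to 7.07 on HFD (median 5.70). The Pparα-/- range was from 4.84 to 7.05 on CTRL (median 5.46) and from 5.38 to 7.58 on HFD (median 6.56). The HFD-fed Pparα-/- mice had the highest median, yet the highest single value belonged to a WT mouse on HFD.

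The HFD value of Mmp13 in Pparα-/- mice was 0.95 ± 0.28 (adjusted p = 0.00918), and its difference from WT on HFD was 0.91 ± 0.27 (adjusted p = 0.00531). When all arrays were weighted equally these were 0.90 (adjusted p = 0.0631) and 0.66 (adjusted p = 0.126). It was 0.68 ± 0.26 for HFD in Pparα hep-/- mice (adjusted p = 0.0602) and 0.39 ± 0.31 in WT mice (adjusted p = 0.436). The probe passed the brightness filter only through the HFD-fed Pparα-deficient mice, so its calls are given as a description and support nothing. Its HFD value in Pparα-/- mice ran from 0.63 with normexp background correction to 1.90 with the processed signal scaled to the 75th percentile, under which that of Pparα hep-/- mice was 2.02 (adjusted p = 0.00543).

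RefSeq promoters of GRCm38.p6, 250 bases before to 50 after the start, were at hand for 6 of the 10 genes (Acta2, Des, Lrat, Tgfb1, Timp1 and Mmp13). They were searched on both strands for the CArG box (CC, then 6 letters each A or T, then GG), the AP-1 site TGANTCA and the Smad palindrome, which are held by 1.63%, 7.81% and 0.213% of the 32851 promoters in the table. The only match in the 6 was an AP-1 site in Mmp13, which begins 35 bases before the start. It is shown because it is the sole match, with the site in capitals (GRCm38.p6, chr9:7272414-7272513, plus strand):
Mmp13 promoter: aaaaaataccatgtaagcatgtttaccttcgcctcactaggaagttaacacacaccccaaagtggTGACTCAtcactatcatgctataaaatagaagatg
A match is a description of these letters only.

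The levels were also compared between genotypes on each diet. On CTRL, 1 of 9 genes was called between Pparα hep-/- and WT mice (Lrat, against 24.7% of all tested probes) and 1 between Pparα-/- and WT mice (Tgfb1, against 34.2%). Between Pparα-/- and Pparα hep-/- mice on CTRL it was 1 of 9 (Lrat, lower, against 25.2%). On HFD, 6 of 9 exceeded WT in Pparα hep-/- mice (Acta2, Lrat, Pdgfrb, Tgfb1, Timp1 and Loxl1, against 26.7%). In Pparα-/- mice 7 of 9 were higher than in WT (Acta2, Des, Lrat, Pdgfrb, Tgfb1, Timp1 and Mmp13, against 45.7%), or 6 without Mmp13, which was well above background on 2 of 8 WT arrays there. Des is counted by its brighter probe. The 2 Pparα-deficient genotypes differed on HFD in 2 of 9 genes (Tgfb1 higher and Loxl1 lower in Pparα-/-, against 30.6%). The comparisons with WT on HFD share the WT HFD mice, and those with WT on CTRL share the WT CTRL mice. The ranges of the groups overlapped for each gene in all 9 two-group contrasts. With equal array weights the counts on HFD were 2, 3 and 1, against 9.74%, 31.7% and 18.1% of all tested probes.

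**Figure D3:**
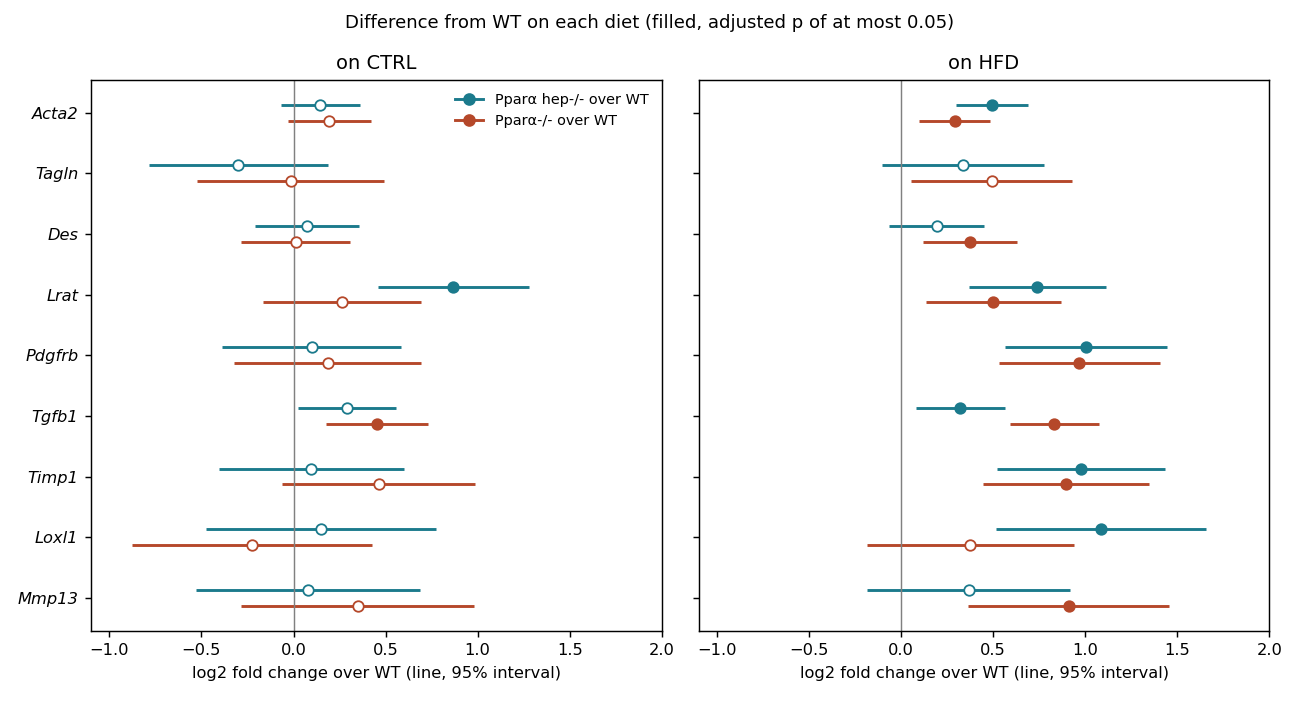
Log2 fold change over WT (horizontal axis) of each gene (vertical axis) in Pparα hep-/- and Pparα-/- mice, on CTRL at left and on HFD at right, with 95% intervals as lines; filled points had an adjusted p of at most 0.05. On CTRL only Lrat in Pparα hep-/- and Tgfb1 in Pparα-/- mice are filled, and on HFD 6 and 7 points are.

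With all mice the HFD response itself was not shown to differ between genotypes for any of the 9 genes. For the response of Pparα hep-/- minus WT mice limma called 0 of 9 (10.4% of all tested probes were called), with 4 at an unadjusted p under 0.05. These were Pdgfrb (0.91 ± 0.33, adjusted p = 0.0652), Timp1 (0.88 ± 0.34, adjusted p = 0.0837), Loxl1 (0.94 ± 0.42, adjusted p = 0.144) and Acta2 (0.35 ± 0.14, adjusted p = 0.114). For Pparα-/- minus WT it called 0 of 9 (14.3% of probes), with 2 at an unadjusted p under 0.05. These were Pdgfrb (0.78 ± 0.33, adjusted p = 0.105) and Tgfb1 (0.38 ± 0.18, adjusted p = 0.155). For Pparα-/- minus Pparα hep-/- it called 0 of 9 (3.42% of probes), with 1 at an unadjusted p under 0.05, Tgfb1 (0.35 ± 0.17, adjusted p = 0.281). The 10 other settings gave 0 in each case except 1: without the 2 arrays of lowest weight the Pdgfrb response differed between Pparα hep-/- and WT mice (0.89, adjusted p = 0.0490). Under that setting 11.4% of all probes were called in this contrast. Leaving out single mice that stood apart for these genes also gave calls. Without replicate 1 of the Pparα hep-/- CTRL group it was Pdgfrb (0.96, adjusted p = 0.0382), and without replicate 6 of the WT HFD group it was Pdgfrb (1.02, adjusted p = 0.0280) and Timp1 (0.99, adjusted p = 0.0369), each for Pparα hep-/- minus WT. Without replicate 2 of the Pparα-/- CTRL group it was Pdgfrb for Pparα-/- minus WT (0.91, adjusted p = 0.0472). These mice were chosen for their high values of the same genes, so these p-values support nothing. The 95% intervals were wide, reaching from 0.25 to 1.56 for Pdgfrb and from -0.68 to 0.43 for Lrat in the first of these contrasts.

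The wash batches gave unequal values. The median HFD response of the 8 genes other than Mmp13 in Pparα-/- mice was 0.86 in wash batch 1, with 4 of the 8 called within that batch (Tagln, Pdgfrb, Tgfb1 and Timp1, against 9.64% of all probes), and 0.21 in wash batch 2, with 0 called (against 11.9%). It was -0.10 and 0.29 in WT mice, and the median difference between Pparα-/- and WT mice on CTRL was 0.00 and 0.54. Between Pparα-/- and WT mice on HFD the medians were 0.77, with 5 of 8 called (against 25.4% of all probes), and 0.25, with 3 called (against 40.7%). Between Pparα hep-/- and WT mice on HFD they were 0.65, with 1 called (against 6.95%), and 0.58, with 4 called (against 15.8%). In Pparα-/- mice on HFD Loxl1 was at 1.26 ± 0.41 and -0.06 ± 0.31 in the 2 batches, Timp1 at 1.05 ± 0.33 and 0.14 ± 0.26, Tagln at 0.98 ± 0.30 and 0.05 ± 0.26, and Pdgfrb at 1.23 ± 0.33 and 0.27 ± 0.23. Tgfb1, at 0.75 ± 0.17 and 0.44 ± 0.16, was closer between them. In Pparα hep-/- mice the medians were 0.63 and 0.46, with 1 gene called in each, Acta2 in the first (against 4.92% of all probes) and Timp1 in the second (against 5.14%). Across the 9 two-group contrasts, all 26 calls of these 8 genes over both batches had the same direction within each batch. These calls were made on the same mice pooled, so this is a description and supports nothing. The difference between batches was not tested.

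The genes varied together from mouse to mouse within a group. After group and wash batch were taken out, all 28 pairs of the 8 genes other than Mmp13 correlated positively over 48 mice, with a median r of 0.689. Over all pairs of 21914 genes treated the same way 50.3% were positive, the median r was 0.002 and 8.35% had an r of 0.374 or above. The highest was Pdgfrb with Loxl1 (r = 0.949, rho = 0.924), and the lowest was Tagln with Lrat (r = 0.374, rho = 0.378). In 28 of 28 pairs both r and rho had a Benjamini-Hochberg adjusted p of at most 0.05, adjusted over all 36 pairs of the 9 genes, in a two-sided permutation test with 100000 resamples within groups, the smallest p it can give being 1e-05. Without the 2 mice farthest from the median of the first gene r stayed at 0.286 or above, and for Pdgfrb with Loxl1 it was 0.928. Within wash batches 1 and 2 the lowest r was 0.387 and 0.354. The pairs share their arrays, so they are not independent of each other.

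**Figure D4:**
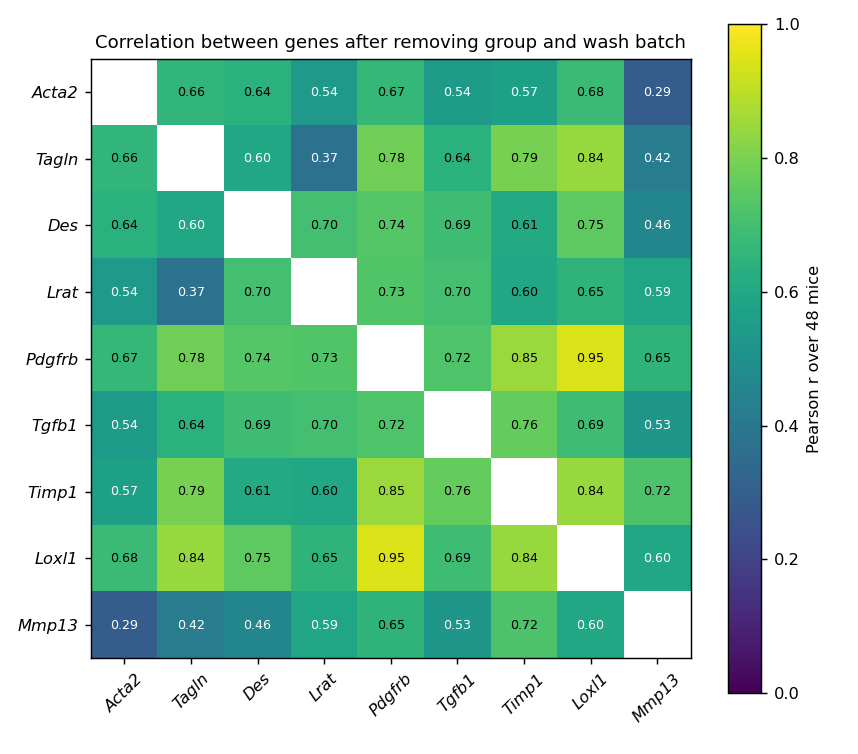
Pearson correlation between the 9 genes over 48 mice after group means and wash batch were removed; both axes list the genes and colour gives r. Pdgfrb, Loxl1, Timp1 and Tagln form the brightest block, with r from 0.782 to 0.949, and Mmp13 with Acta2 is the darkest cell, at 0.294.

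The same mice were high for most of the genes. Replicate 6 of the WT HFD group was the highest of its group for 9 of 9 genes, replicate 1 of the Pparα hep-/- CTRL group for 8, replicate 2 of the Pparα-/- CTRL group for 8 and replicate 6 of the WT CTRL group for 5. Their array weights were 0.372, 0.189, 0.756 and 0.208. In the HFD-fed Pparα-deficient groups no mouse was highest for more than 4 genes.

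Genes of the same processes, from lists of named genes that leave out the 10 above, moved on HFD as follows; the 2 genes with the lowest adjusted p of each list are named for each genotype, which does not mean that they were not called in another. Of 25 matrix proteins, 0 were called in WT mice (median log2 fold change 0.09), 15 rose and 1 fell in Pparα hep-/- mice (median 0.73), and 13 rose and 0 fell in Pparα-/- mice (median 0.57). The medians over all tested probes were -0.01, -0.01 and -0.02. Postn, a matricellular protein, rose by 1.08 ± 0.20 (adjusted p = 0.000159) and the collagen VI chain Col6a2 by 0.99 ± 0.20 (adjusted p = 0.000350) in Pparα hep-/- mice. In Pparα-/- mice the collagen VI chain Col6a1 rose by 0.95 ± 0.25 (adjusted p = 0.00417) and the basement membrane collagen Col4a1 by 0.80 ± 0.23 (adjusted p = 0.00811). Col1a1, a chain of collagen I named here after its values were seen, rose by 2.18 ± 0.48 without hepatocyte Pparα (adjusted p = 0.00110) and by 1.51 ± 0.50 in Pparα-/- mice (adjusted p = 0.0228). With equal array weights 1 of the 25 was called higher in each of the Pparα-deficient genotypes. The counts with equal weights, here and for the lists that follow, stand against 5.95%, 1.58% and 5.78% of all tested probes called higher in WT, hepatocyte-deficient and Pparα-/- mice. Without the 2 arrays of lowest weight 18 and 13 matrix genes were called higher. The counts without these arrays, here and for the lists that follow, stand against 8.53%, 10.8% and 12.6% of all tested probes called higher in WT, Pparα hep-/- and Pparα-/- mice.

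Of 19 stellate cell identity genes, 0 were called in WT mice, 6 rose and 1 fell in Pparα hep-/- mice (median 0.21), and 11 rose and 1 fell in Pparα-/- mice (median 0.48). Cygb, a globin of stellate cells, rose by 0.61 ± 0.16 in Pparα hep-/- mice (adjusted p = 0.00653), where Hhip, a hedgehog-binding protein, fell (-0.94 ± 0.22, adjusted p = 0.00250). In Pparα-/- mice the secreted protein Reln rose by 0.65 ± 0.15 (adjusted p = 0.00151) and the intermediate filament Nes by 0.51 ± 0.13 (adjusted p = 0.00357). Gfap was well above background on 1 of 48 arrays and was not tested. With equal weights 0 and 4 of the 19 were called higher in the Pparα-deficient genotypes.

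Of 25 other TGF-β pathway genes, 0 rose and 2 fell in WT mice, 7 rose and 0 fell in Pparα hep-/- mice, and 12 rose and 1 fell in Pparα-/- mice. The genes that fell in WT mice were the receptor Tgfbr1 (-0.58 ± 0.11, adjusted p = 0.000200), which rose in Pparα-/- mice (0.41 ± 0.10, adjusted p = 0.00235), and the mediator Smad4 (-0.19 ± 0.07, adjusted p = 0.0318). Thbs1, which activates latent TGF-β, rose by 1.22 ± 0.26 (adjusted p = 0.00101) and Ltbp1, which binds it, by 0.63 ± 0.17 (adjusted p = 0.00653) in Pparα hep-/- mice. The receptor Tgfbr2 rose by 0.84 ± 0.15 (adjusted p = 7.35e-05) and Cyr61, a matricellular protein, by 1.02 ± 0.21 (adjusted p = 0.000359) in Pparα-/- mice. With equal weights 0 and 5 of the 25 were called higher in the Pparα-deficient genotypes.

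Of the 4 PDGF ligand genes, Pdgfb and Pdgfc rose in both Pparα-deficient genotypes and Pdgfa fell in WT mice (-0.45 ± 0.14, adjusted p = 0.0233). Pdgfb rose by 0.48 ± 0.16 without hepatocyte Pparα (adjusted p = 0.0312) and by 0.65 ± 0.17 in Pparα-/- mice (adjusted p = 0.00436). The values of Pdgfc were 0.49 ± 0.14 (adjusted p = 0.0112) and 0.41 ± 0.15 (adjusted p = 0.0380). With equal weights 0 of the 4 were called higher in either Pparα-deficient genotype.

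In the order WT, Pparα hep-/- and Pparα-/-, 2, 4 and 7 of 13 contractile genes rose on HFD, and 0, 0 and 1 fell. Mylk, the kinase of the myosin light chain, rose by 0.32, 0.31 and 0.32 in the 3 genotypes (adjusted p = 0.000485, 7.4e-05 and 9.65e-05), and the tropomyosin gene Tpm2 rose by 2.03 ± 0.34 in WT mice (adjusted p = 4.03e-05). Tagln2 rose by 0.94 ± 0.22 without hepatocyte Pparα (adjusted p = 0.00202) and Flna, a filamin, by 0.82 ± 0.19 in Pparα-/- mice (adjusted p = 0.00135). With equal weights 2, 1 and 3 of the 13 rose and 0 fell. Without the 2 arrays of lowest weight 7 rose and 1 fell in Pparα hep-/- mice.

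Of 15 genes of collagen cross-linking and processing, 1, 7 and 5 rose and 1, 2 and 0 fell. P4ha2, a prolyl hydroxylase of collagen, rose in Pparα hep-/- mice (0.55 ± 0.12, adjusted p = 0.000683), and the lysyl hydroxylase Plod3 fell there (-0.20 ± 0.04, adjusted p = 0.000798) and in WT mice (-0.28 ± 0.05, adjusted p = 8.81e-05). Bmp1, which cleaves procollagen, rose by 0.37 ± 0.10 in WT mice (adjusted p = 0.00634). The transglutaminase Tgm2 rose in Pparα-/- mice by 0.69 ± 0.17 (adjusted p = 0.00259) and Colgalt1, which glycosylates collagen, by 0.24 ± 0.07 (adjusted p = 0.0123). With equal weights 1, 0 and 0 of the 15 rose and 1, 1 and 0 fell, and without the 2 arrays of lowest weight 2 rose in WT mice.

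Of 19 matrix proteases and inhibitors, 1, 10 and 8 rose and 1, 1 and 3 fell. Mmp12, the macrophage elastase, rose by 1.74 ± 0.32 in Pparα hep-/- mice (adjusted p = 0.000165). Reck, a membrane inhibitor of metalloproteinases, fell there (-1.09 ± 0.19, adjusted p = 6.99e-05), in WT mice (-0.99 ± 0.22, adjusted p = 0.00131) and in Pparα-/- mice (-0.83 ± 0.20, adjusted p = 0.00190). Mmp19 rose in WT mice by 0.23 ± 0.08 (adjusted p = 0.0300) and fell in Pparα-/- mice (-0.28 ± 0.07, adjusted p = 0.00292). The protease Adamts1 rose in Pparα-/- mice by 0.72 ± 0.11 (adjusted p = 9.69e-06) and Plaur, the urokinase receptor, by 1.12 ± 0.19 (adjusted p = 3.23e-05). With equal weights 1, 0 and 6 of the 19 rose and 1, 1 and 3 fell.

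Of 15 genes of retinoid handling and lipid storage, 4, 2 and 2 rose and 2, 4 and 1 fell. Aldh1a1, a retinaldehyde dehydrogenase, rose by 1.30 ± 0.13 in WT mice (adjusted p = 5.72e-09) and by 0.50 ± 0.12 in Pparα-/- mice (adjusted p = 0.00149). Dhrs3, a retinaldehyde reductase, rose by 0.26 ± 0.07 in WT mice (adjusted p = 0.00456). Lpl, lipoprotein lipase, rose in Pparα-/- mice (1.43 ± 0.34, adjusted p = 0.00157) and without hepatocyte Pparα (1.17 ± 0.32, adjusted p = 0.00771), and fell in WT mice (-1.26 ± 0.38, adjusted p = 0.0147). Rdh11, a retinol dehydrogenase, and Pnpla3, a lipase, fell in Pparα hep-/- mice (-1.65 ± 0.21, adjusted p = 3.49e-07, and -1.89 ± 0.45, adjusted p = 0.00219), and Pnpla3 fell in WT mice too (-1.73 ± 0.53, adjusted p = 0.0162). With equal weights 2, 0 and 2 of the 15 rose and 0, 2 and 0 fell, and without the 2 arrays of lowest weight 1 rose in Pparα hep-/- mice.

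**Figure D5:**
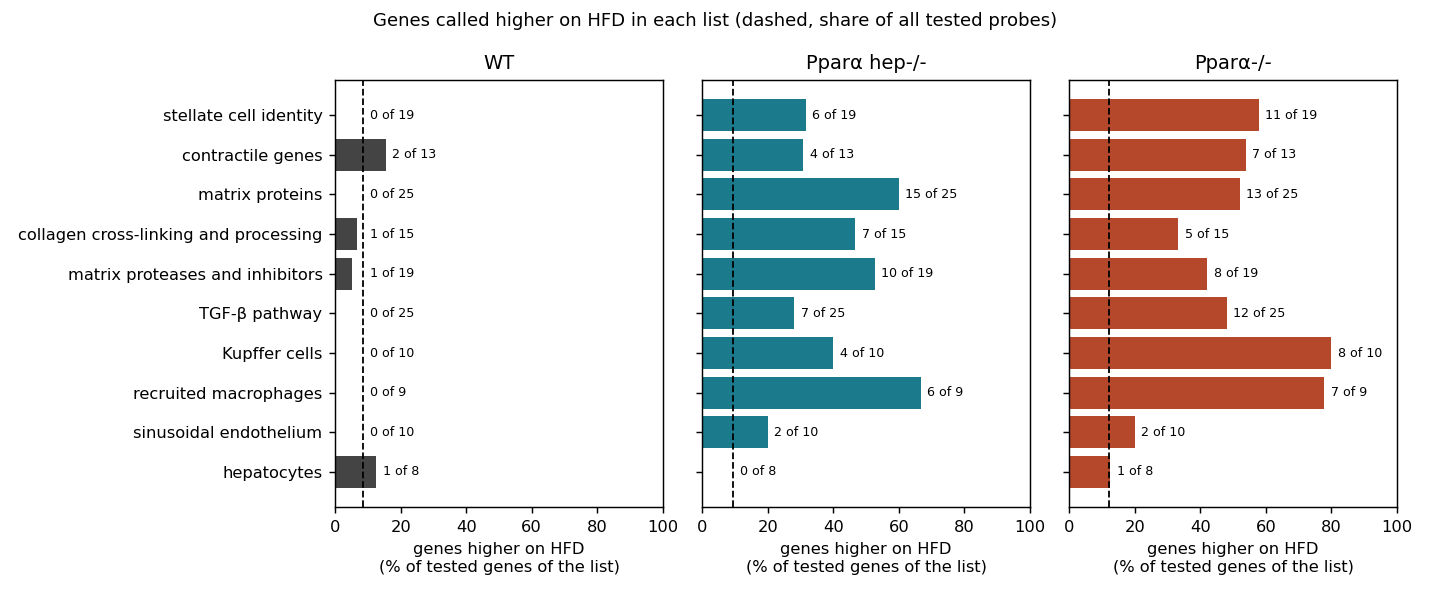
Share of the tested genes of each list called higher on HFD (horizontal axis, % of tested genes), one panel per genotype; the dashed line is the share of all tested probes called higher, 8.6%, 9.46% and 12.2%. Matrix proteins stand at 0 of 25 in WT mice, 15 of 25 in Pparα hep-/- mice and 13 of 25 in Pparα-/- mice, and the 2 macrophage lists stand above the dashed line in both Pparα-deficient genotypes.

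Macrophages can also make Tgfb1, Timp1 and Mmp13, and their markers were counted in the same way. Of 10 Kupffer cell markers 0 rose on HFD in WT mice and 4 and 8 in Pparα hep-/- and Pparα-/- mice, and of 9 markers of recruited macrophages 0 rose and 1 fell in WT mice, while 6 and 7 rose in the Pparα-deficient genotypes. The gene that fell in WT mice was Cd9 (-0.95 ± 0.20, adjusted p = 0.000719). Gpnmb, of lipid-laden macrophages, rose by 2.99 ± 0.54 (adjusted p = 0.000103) and the integrin Itgax by 1.50 ± 0.34 (adjusted p = 0.00140) in Pparα hep-/- mice, and Ccl2, the monocyte attractant, by 2.38 ± 0.40 (adjusted p = 3.1e-05) and the integrin Itgam by 0.61 ± 0.12 (adjusted p = 0.000316) in Pparα-/- mice. Of the Kupffer list, Lyz2 rose by 1.05 ± 0.28 (adjusted p = 0.00722) and Cd68 by 0.69 ± 0.21 (adjusted p = 0.0184) in Pparα hep-/- mice, and Cd68 by 1.17 ± 0.22 (adjusted p = 0.000184) and C1qa by 0.99 ± 0.22 (adjusted p = 0.000866) in Pparα-/- mice. The mean log2 signal over the genes of the recruited macrophage list ran from 8.36 to 10.97 in WT CTRL, from 8.42 to 10.95 in WT HFD, from 8.60 to 11.54 in Pparα hep-/- CTRL, from 9.67 to 10.72 in Pparα hep-/- HFD, from 8.10 to 10.98 in Pparα-/- CTRL and from 9.59 to 10.68 in Pparα-/- HFD mice. That of the Kupffer list ran from 10.32 to 11.46, 9.82 to 12.01, 11.09 to 11.71, 11.02 to 12.21, 10.80 to 11.71 and 11.52 to 12.43 in the same order. All markers of both lists were tested, and each was well above background on 31 or more of the 48 arrays. With equal array weights 0 and 5 Kupffer markers and 1 and 4 markers of recruited macrophages were called higher in the Pparα-deficient genotypes. Their part in the results was not tested.

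Markers of other cell types were called on HFD as follows, in the order WT, Pparα hep-/- and Pparα-/-. Of 10 sinusoidal endothelial markers 0, 2 and 2 rose, of 7 portal fibroblast markers 0, 1 and 0, of 5 vascular smooth muscle markers 0, 0 and 2, of 6 cholangiocyte markers 0, 1 and 0, and of 3 mesothelial markers 0, 1 and 1, with none falling in any of these lists. Stab2, a scavenger receptor of sinusoidal endothelium, rose by 0.38 ± 0.08 without hepatocyte Pparα (adjusted p = 0.000468) and by 0.48 ± 0.08 in Pparα-/- mice (adjusted p = 4.04e-05), and Wt1, the mesothelial transcription factor, by 0.93 ± 0.24 (adjusted p = 0.00519) and 0.92 ± 0.25 (adjusted p = 0.00604). The mean log2 signal of the whole mesothelial list was 6.74 on CTRL and 7.05 on HFD in Pparα hep-/- mice, but 6.74 and 6.69 in Pparα-/- mice. Cd34 of the portal fibroblast list rose by 1.14 ± 0.27 (adjusted p = 0.00224) and Sox9 of the cholangiocyte list by 0.54 ± 0.16 (adjusted p = 0.0117) in Pparα hep-/- mice. Rgs5, which the stellate and vascular smooth muscle lists share, rose by 0.71 ± 0.19 in Pparα-/- mice (adjusted p = 0.00401). Of 3 skeletal muscle genes none was called. Of 8 hepatocyte markers 1, 0 and 1 rose and 1, 1 and 1 fell, and their mean log2 signal stayed between 17.24 and 17.73 over all 48 mice. With equal weights the counts that rose were 1, 1 and 2 for sinusoidal endothelium, 0, 0 and 1 for vascular smooth muscle, 0, 0 and 1 for mesothelium and 0 for the portal fibroblast and cholangiocyte lists. Without the 2 arrays of lowest weight 2 vascular smooth muscle and 2 portal fibroblast markers rose in Pparα hep-/- mice. Differences in frequency between the lists were not tested.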

How the data were processed

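Liver RNA of 48 mice was hybridised to single-colour Agilent arrays (design 74809). The authors deposited the Feature Extraction 10.10.1.1 output, whose median spot intensities are, per the file headers, raw signals; they were not background-subtracted or normalised. A second deposited table holds log2 values after the authors' filter, wash bath correction and quantile normalisation, and served as an alternative (r of 0.9994 to 0.9995 per array with the values used here).

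Intensities were log2 transformed, spots marked as outliers were left out and spots of a probe were averaged. A probe was kept if at least 1 group had 4 or more of its 8 arrays well above background for it (33323 probes), and the 48 arrays were quantile normalised. limma 3.58.1 in R 4.3.3 was fitted with 6 group means, a wash batch term and array weights, with eBayes; probes with any of the 195 missing values were fitted on their remaining arrays. p was adjusted within each of 12 contrasts (Benjamini-Hochberg). Where a gene had several tested probes, the brightest on average stood for it. Gene names are those of the array design.

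All 10 genes were named, with the 2 genes of lowest adjusted p per list and the 2 genes most like each one after the wash effect was removed. The genes and lists were chosen with earlier results of these data known. The fit was tested on simulated data. Alternatives were equal weights, no wash term, slide as a block, the replicate block, the 75th percentile scaling of the processed signal, normexp, the authors' table, other filters, and leaving out the 2 arrays of lowest weight or, in turn, 3 mice that stood apart (both chosen after seeing the data). The units are mice, 8 per group. The number of arrays limits the precision. No 2 arrays were identical.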

Additional observations from a re-analysis of the deposited data

Results flagged for a closer look

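In 7 of 54 sets of 8 mice (9 genes in 6 groups), the highest mouse lay far from the next by Dixon's criterion, which flags about 1 group in 20 by chance. Replicate 1 of the Pparα hep-/- CTRL group was such a mouse for 5 genes: Tagln (11.59, next 10.45), Pdgfrb (10.69, next 9.27), Timp1 (10.19, next 8.72), Loxl1 (10.31, next 7.92) and Mmp13 (6.45, next 5.62). The other 2 were Timp1 in replicate 6 of the WT HFD group (10.40, next 8.91) and Timp1 in replicate 2 of the Pparα-/- CTRL group (10.22, next 9.06). Without the Pparα hep-/- mouse, the HFD values in that genotype were 0.67 for Tagln (adjusted p = 0.0170), 0.89 for Pdgfrb (adjusted p = 0.00140), 1.04 for Timp1 (adjusted p = 0.000492), 0.97 for Loxl1 (adjusted p = 0.00501) and 0.71 for Mmp13 (adjusted p = 0.0462). Without the WT mouse the Timp1 value in WT was 0.02 (adjusted p = 0.973), and without the Pparα-/- mouse it was 0.73 in Pparα-/- (adjusted p = 0.0107). The mice left out were picked for their high values of the same genes, so these p-values support nothing.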

How the results depend on the processing

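Counts of called genes were refitted under 10 other settings. With equal array weights they were 1 for HFD in Pparα hep-/- mice, 1 for HFD in Pparα-/- mice, 0 for Pparα-/- against WT on CTRL, and 2, 3 and 1 on HFD for Pparα hep-/- against WT, Pparα-/- against WT and Pparα-/- against Pparα hep-/-. In the same order, 3.81%, 12.1%, 31%, 9.74%, 31.7% and 18.1% of all probes were called. With slides as blocks instead of wash batches, 3 were called for HFD in Pparα-/- mice (against 23.9% of all probes). The count for Pparα-/- against Pparα hep-/- on HFD was 1 without the wash batch term (against 26% of all probes), 1 with the processed signal scaled to the 75th percentile (against 31.9%) and 1 without the filter on dim probes (against 14.8%). Without that filter the HFD counts were 3 in Pparα hep-/- (against 6.32%) and 2 in Pparα-/- mice (against 10.6%), of 10 genes since Lox then entered. Leaving out the 2 arrays of lowest weight, a setting chosen after seeing the data, gave 1 gene for the HFD response of Pparα hep-/- minus WT (against 11.4% of all probes). Leaving out, 1 at a time, the 3 mice that stood apart, also chosen after seeing the data, gave 5 to 8 genes for HFD in Pparα-/- mice (against 24.9% to 27.6% of all probes). It gave 0 to 2 for the response of Pparα hep-/- minus WT (against 10.3% to 12.1%) and 0 to 1 for that of Pparα-/- minus WT (against 14.6% to 16.3%). All other counts were within 1.5 times.

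Of 1590 values of single genes under another setting, without a mouse that stood apart, in 1 wash batch or by another probe, 349 were called both ways, 1139 were called neither way, 77 lost their call, 22 gained one and 3 turned direction with a call on either side. In 75 of them the sign changed where neither value was called. The 3 that turned were Des by its second probe, which passed the brightness filter only through the Pparα-/- CTRL group, at -0.57 for HFD in Pparα-/- mice, 0.40 for Pparα-/- against Pparα hep-/- on CTRL and -0.19 for Pparα-/- against WT on HFD. The cause was not tested.

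Scaling to the 75th percentile lowered the share of called probes that were higher in several contrasts. For HFD it went from 46.8% to 35.5% in Pparα hep-/- mice and from 49.3% to 35.6% in Pparα-/- mice. For Pparα hep-/- against WT it went from 49.7% to 37.8% on HFD and from 44.4% to 31.2% in the response. For Pparα-/- against WT it went from 47.6% to 37.9% on HFD and from 48.3% to 29.9% in the response. Replicate numbers are shared by the groups. Of 120 same-number pairs 34 correlated above 0.1, and 10 of 48 arrays were closest to their own number. The mean r was 0.0137 for same-number pairs and -0.00171 for other pairs. Whether the numbers pair the mice was not tested. With the replicate number as a block, HFD calls were 0, 5 and 4 in WT, Pparα hep-/- and Pparα-/- mice, and calls on HFD were 5 and 7 against WT, with Des and Lrat (HFD in Pparα-/- mice) and Tgfb1 (Pparα hep-/- against WT on HFD) lost and Timp1 (HFD in Pparα-/- mice) gained at an adjusted p of 0.0480. Mmp13 and the second Des and Tgfb1 probes lay near background, which limits their values.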
